A study of Mus musculus with 12 samples.

Results

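The growth hormone (GH) receptor and insulin-like growth factor (IGF) axis was examined here in mouse liver as 10 genes: Ghr, Stat5a, Stat5b, Socs2, Cish, Igf1, Igfals, Igfbp1, Igfbp2 and Igfbp3. Members were the rows of the count table whose gene symbol equals one of these names, 10 of 24411 genes, and all 10 were among the 13922 genes that passed the filter on low counts. Liver RNA-seq was available for 3 mice of each of 3 genotypes, all of them homozygous for a floxed Atg7 allele, on a C57BL/6 background and analysed at 3 months of age. Atg7flox/flox mice served as the control (cont.). Atg7flox/flox;Alb-Cre mice (Atg7-KO) also carry Cre driven by the albumin promoter, which deletes Atg7, a gene needed for autophagosome formation, in hepatocytes. Which other cells of the liver keep the gene was not tested. Atg7flox/flox;Alb-Cre;p62T352A/p62T352A mice (Atg7-KO;p62T352A, here also the double mutant) are in addition homozygous for a threonine-to-alanine change in p62, the autophagy receptor encoded by Sqstm1, which the study designed so that p62 bodies no longer retain KEAP1, the inhibitor of the transcription factor NRF2. The change was introduced in an embryonic stem cell line by prime editing, and the number of founder clones is not given in the sources used here. A further 3 mice with the p62 change and no Cre were not analysed here.

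GH from the pituitary binds its receptor on hepatocytes, and the receptor-bound kinase JAK2 phosphorylates STAT5, which enters the nucleus and drives transcription of Igf1, Igfals and of the feedback inhibitors Socs2 and Cish. Most circulating IGF-1 comes from hepatocytes and travels in a ternary complex with a binding protein and the acid-labile subunit. Release of GH differs between male and female mice, and many liver genes follow that difference through STAT5.

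Values are normalized CPM, that is, counts scaled to the size of each library with the TMM method of edgeR. A gene was called where its Benjamini-Hochberg FDR was under 0.05 and it changed over 1.5-fold, by edgeR's quasi-likelihood test in 1 fit over the 9 mice, and every FDR below is from that fit unless another is named. Libraries held 9671073 to 23285134 counts in cont., 16157275 to 18480541 in Atg7-KO and 16133626 to 17357183 in the double mutant. The TMM factors followed genotype, at 0.750 to 0.953 in cont., 1.28 to 1.32 in Atg7-KO and 0.823 to 0.951 in the double mutant. Small fold changes between genotypes therefore depend on this scaling. Atg7 stood at 44.2 to 55.4 CPM in cont., 9.57 to 12.0 in Atg7-KO and 27.4 to 29.7 in the double mutant, and differed in each comparison at FDR 2.55e-05, 0.000164 and 0.0206. The double mutant thus held 2.73-fold more Atg7 RNA than Atg7-KO, beside the p62 change. By immunoblot, the paper found almost no ATG7 protein in either. What this difference in RNA contributed was not tested. Nqo1, a target of NRF2, stood at 6.36 to 12.2, 175 to 249 and 11.7 to 18.4 CPM in the same order. Hepatocyte markers were abundant throughout, with a summed level over 7 genes of 74958 to 132620 CPM in cont., 40276 to 43383 in Atg7-KO and 113750 to 132751 in the double mutant.

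Some libraries stood apart within every genotype. The labels give no sex. The mice numbered 1 had few counts of Xist (7, 28 and 9 in the 3 genotypes), against 8578 to 18335 in the other mice. The summed level of 4 Y-linked genes (Ddx3y, Eif2s3y, Kdm5d and Uty) was 102 to 159 CPM in the mice numbered 1. Several of the Xist-rich libraries nevertheless held Y-linked transcripts: cont. mouse 2 had 36.5% of the level of cont. mouse 1, cont. mouse 3 had 8.23%, Atg7-KO;p62T352A mouse 2 had 11.5% and mouse 3 had 3.98% of mouse 1 of their genotype, and in Atg7-KO the shares were 4.73% and 0.798%. In cont. mouse 2, 11 genes known for male-biased expression in liver stood at a median of 36.9% of cont. mouse 1 (range 34.9% to 61.8%). In cont. mouse 3 that median was 10.2%, and in Atg7-KO;p62T352A mouse 2 and mouse 3 it was 16.6% and 7.78% of mouse 1. In Atg7-KO, where these genes were low, the medians were 63.7% and 66.2% (range 0% to 714%), unlike the Y-linked shares. The source of these transcripts was not tested. Each genotype had 1 mouse of the first kind and 2 of the second, so the members' called differences and the counts of calls are also given without the mice numbered 1 and without cont. mouse 2.

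Stretches of promoter sequence are shown first for Cish and Igfals, since these were the members whose RefSeq promoter windows (250 bases before to 50 after a start; build GRCm38.p6) held the letters TTCNNNGAA bound by STAT5. The motif reads the same on both strands and occurred in 8.3% of 32851 mouse promoter windows. RefSeq gave 15 windows for 9 of the 10 members. Cish had 2 matches, 1 and 12 bases from its start, and Igfals had 1 in each of 2 windows, at -236 and at -58. Windows of Ghr, Stat5a, Stat5b, Igf1, Igfbp1, Igfbp2 and Igfbp3 held none, which says only that these letters are not in those windows. The stretches below run from 250 bases before to 30 bases after the start on the plus strand, with the matches in capitals, at chr9:107296409-107296688 for Cish and at chr17:24877594-24877873 and chr17:24877981-24878260 for Igfals.
Cish: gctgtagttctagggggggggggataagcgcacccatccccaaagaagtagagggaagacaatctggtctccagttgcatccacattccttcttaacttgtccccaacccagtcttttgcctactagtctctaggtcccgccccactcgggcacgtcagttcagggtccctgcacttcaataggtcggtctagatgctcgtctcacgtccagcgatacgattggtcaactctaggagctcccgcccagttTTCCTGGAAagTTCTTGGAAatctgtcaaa
Igfals, first window: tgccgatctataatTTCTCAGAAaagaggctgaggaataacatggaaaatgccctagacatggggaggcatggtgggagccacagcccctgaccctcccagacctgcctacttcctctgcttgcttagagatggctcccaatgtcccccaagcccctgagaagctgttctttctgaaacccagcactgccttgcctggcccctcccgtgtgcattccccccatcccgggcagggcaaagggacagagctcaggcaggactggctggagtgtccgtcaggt
Igfals, second window: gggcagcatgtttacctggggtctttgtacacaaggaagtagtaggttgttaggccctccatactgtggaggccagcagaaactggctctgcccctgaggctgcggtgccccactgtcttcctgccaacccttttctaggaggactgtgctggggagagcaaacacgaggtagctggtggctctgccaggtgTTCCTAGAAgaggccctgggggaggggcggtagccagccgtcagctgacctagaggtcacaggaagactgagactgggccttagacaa

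In Atg7-KO livers, 6 of the 10 members fell and none rose, and in Atg7-KO;p62T352A livers 7 stood above Atg7-KO and none below. The 6 were the receptor Ghr, both STAT5 genes, Igf1, Igfals and Igfbp2, and the seventh was Socs2. The median log2 fold change of the members was -1.15 in Atg7-KO against cont. (all tested genes, -0.03) and 1.13 in Atg7-KO;p62T352A against Atg7-KO (all tested genes, 0.0021). In the first comparison 43.7% of all tested genes were called, 21.6% higher and 22.1% lower. In the second, 51% were called, 24.7% higher and 26.2% lower. Against cont., Atg7-KO;p62T352A livers differed in 1 member, Igf1, which was higher, where 11.6% of all genes were called, 6.25% higher and 5.34% lower. The counts of members called in these 3 comparisons were 6, 8 and 0 without cont. mouse 2, and 7, 7 and 1 without the mice numbered 1. Over all genes, 5118, 7148 and 852 were called without cont. mouse 2, and 7649, 7575 and 2975 without the mice numbered 1. The main fit called 6080, 7095 and 1613. These totals are also the background for the same refits of the gene lists below.

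Without cont. mouse 2, the 6 members stayed called in Atg7-KO against cont., with Ghr at -2.41, Stat5a at -0.60, Stat5b at -0.83, Igf1 at -2.38, Igfals at -2.12 and Igfbp2 at -2.17 on the log2 scale (FDR 0.00027 to 0.0249). In Atg7-KO;p62T352A against Atg7-KO, where that mouse is in neither group, the 7 stayed called (FDR 7.71e-05 to 0.0415). With the mice numbered 1 left out, Ghr was at -1.95, Stat5a at -0.68, Stat5b at -0.73, Igf1 at -2.45, Igfals at -1.62 and Igfbp2 at -1.59 in the first comparison (FDR 9.27e-05 to 0.00818). In the second, Ghr was then at 1.36, Stat5a at 0.82, Stat5b at 0.67, Socs2 at 2.78, Igf1 at 3.12, Igfals at 2.29 and Igfbp2 at 3.11 (FDR 7.25e-05 to 0.0114). Calls that changed are given with their gene.

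**Figure D1:**
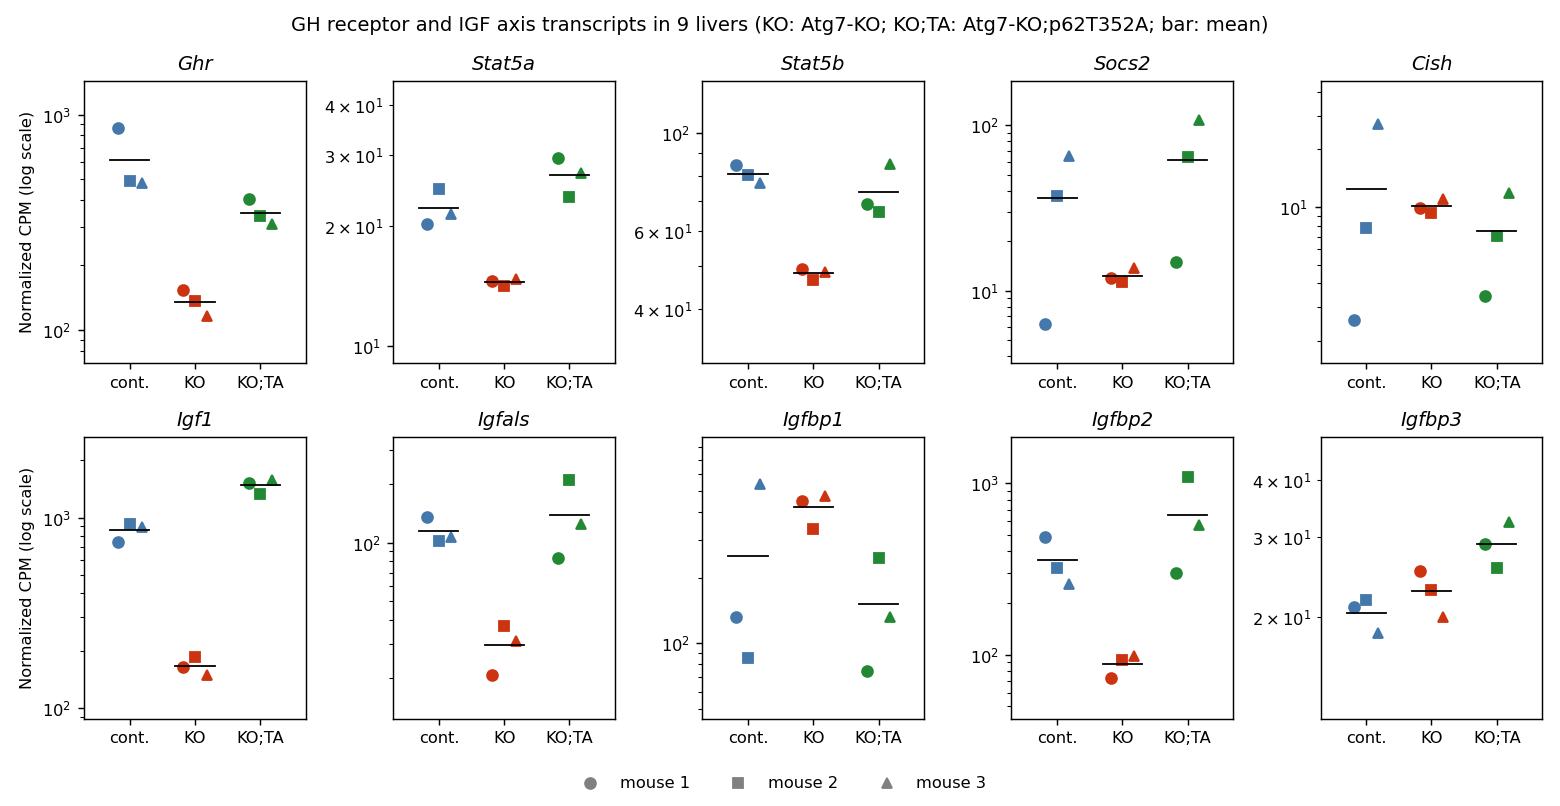
Normalized CPM (log scale) of the 10 members in each mouse, by genotype, with symbols for the mouse number and a bar at the mean of 3 mice. Igf1 in Atg7-KO sits between 149 and 185 CPM, below the 746 to 924 of cont. and the 1335 to 1577 of Atg7-KO;p62T352A, while Socs2 and Cish spread widely in cont. and narrowly in Atg7-KO.

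Ghr (ENSMUSG00000055737.12; chr15:3317760-3583492, minus strand, GRCm38), the GH receptor, was 864, 493 and 481 CPM in the 3 cont. mice, 153, 137 and 116 in Atg7-KO and 404, 337 and 311 in the double mutant. The 3 genotypes did not overlap, and Atg7-KO;p62T352A lay between the others. Ghr was 4.53-fold lower in Atg7-KO than in cont. (log2 fold change -2.18 ± 0.27 SE, n = 3 per genotype, edgeR FDR 0.00025) and 2.59-fold higher in Atg7-KO;p62T352A than in Atg7-KO (1.37 ± 0.26, FDR 0.00202). Against cont., Atg7-KO;p62T352A was at -0.81 ± 0.26 (FDR 0.0724), which was not called, whereas DESeq2 called it at -0.87 (FDR 0.0179). An edgeR fit with a term for the mice numbered 1 also called it, at -0.77 (FDR 0.0334). The highest Ghr value belonged to cont. mouse 1, and without the mice numbered 1 the last difference was -0.59 (FDR 0.0554). In a bulk sample, fewer cells of a type and less RNA per cell cannot be told apart.

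Markers of the cell types of the liver also differed between genotypes, not all in the same pattern. In Atg7-KO, 6 of the 7 hepatocyte markers tested were called lower than in cont., with a median log2 fold change of -1.26, and 5 were called higher in Atg7-KO;p62T352A than in Atg7-KO, with a median of 1.40. The summed level of 5 cholangiocyte markers was 33.4 to 51.2 CPM in cont., 823 to 1018 in Atg7-KO and 180 to 265 in the double mutant. That of 5 macrophage markers was 30.6 to 111, 478 to 530 and 32.9 to 71.0 CPM, and that of 5 Kupffer cell markers was 220 to 265, 476 to 539 and 146 to 295. Stellate cell markers (6 genes) summed to 212 to 271, 533 to 574 and 308 to 491 CPM, leukocyte markers (4 genes) to 12.9 to 24.7, 57.2 to 63.1 and 18.7 to 21.8, and sinusoidal endothelial markers (7 genes) to 395 to 452, 324 to 343 and 209 to 251. No marker was at 0 in every mouse of a genotype. In Atg7-KO against cont., the higher and the lower calls were 4 and 0 of the cholangiocyte markers, 5 and 0 of the macrophage, 2 and 1 of the Kupffer cell, 4 and 0 of the stellate cell, 3 and 0 of the leukocyte and 1 and 2 of the endothelial markers. Of the 7 endothelial markers, 4 were called lower in Atg7-KO;p62T352A than in Atg7-KO, and 4 lower than in cont., with none higher in either. The part of these cell types in the members' differences was not tested. The falls of Ghr, Igf1, Igfals and Igfbp2 between cont. and Atg7-KO, at log2 fold changes of -2.36 to -1.95, were larger than the hepatocyte markers' median, and those of Stat5a and Stat5b were smaller. This is a description against a median of 7 markers, and no difference between members and markers was tested.

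Stat5a (ENSMUSG00000004043.14; chr11:100859351-100885169, plus strand) and Stat5b (ENSMUSG00000020919.11; chr11:100780731-100850724, minus strand) encode the transcription factors activated by the receptor and lie 8.626 kb apart. Stat5b was 84.6, 80.3 and 76.9 CPM in cont., 49.3, 46.5 and 48.4 in Atg7-KO and 69.0, 66.3 and 84.9 in the double mutant. Stat5a was 20.2, 24.7 and 21.4, then 14.6, 14.1 and 14.7, then 29.6, 23.6 and 27.1 CPM in the same order. For both genes the Atg7-KO mice lay below all the others on the TMM scale, whose factors were highest in Atg7-KO. Scaling by library totals alone was not fitted. The log2 fold change in Atg7-KO against cont. was -0.75 ± 0.16 SE for Stat5b (edgeR FDR 0.00396) and -0.61 ± 0.16 for Stat5a (FDR 0.0109). In Atg7-KO;p62T352A against Atg7-KO it was 0.61 ± 0.16 for Stat5b (FDR 0.00856) and 0.89 ± 0.16 for Stat5a (FDR 0.00136). Against cont., Atg7-KO;p62T352A was at -0.13 for Stat5b (FDR 0.615) and 0.28 for Stat5a (FDR 0.281).

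The fold changes of the STAT5 genes lay close to the 1.5-fold minimum. With upper-quartile scaling, under which the median of all tested genes was 0.08 and -0.14 in the first 2 comparisons, Stat5a was at -0.50 (FDR 0.025) in Atg7-KO against cont. and Stat5b at 0.48 (FDR 0.0323) in Atg7-KO;p62T352A against Atg7-KO, both under that minimum. The call of Stat5b in the latter was also lost without Atg7-KO;p62T352A mouse 3 (0.50, FDR 0.0359) and with DESeq2 (0.58, FDR 0.000678). Transcripts of the pair share 387 stretches of 75 bases, the read length, which is 5.12% of those of Stat5a and 6.99% of those of Stat5b, and their deposited expected counts were fractional with whole sums, so reads were divided between them. Their summed counts differed by -0.72 (FDR 0.00417) and 0.68 (FDR 0.00434) in the first 2 comparisons and by -0.04 (FDR 0.906) in the third. The ratio of Stat5b to Stat5a counts was 3.25 to 4.19 in cont., 3.30 to 3.39 in Atg7-KO and 2.34 to 3.14 in the double mutant.

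Socs2 (ENSMUSG00000020027.18; chr10:95385362-95417180, minus strand) encodes an inhibitor that targets the activated GH receptor for degradation. It was 6.3, 37.3 and 65.5 CPM in cont., 11.8, 11.3 and 13.6 in Atg7-KO and 14.9, 63.8 and 106.9 in the double mutant. Mouse 1 was the lowest in cont. and in Atg7-KO;p62T352A, and cont. overlapped with Atg7-KO through that mouse. Atg7-KO;p62T352A was 5.05-fold higher than Atg7-KO (log2 fold change 2.34 ± 0.80 SE, n = 3, FDR 0.032), while Atg7-KO against cont. was at -1.56 ± 0.78 (FDR 0.128), which was not called. Without the mice numbered 1 the values were 2.78 (FDR 0.00036) and -2.04 (FDR 0.00122), and without cont. mouse 1 alone the latter was -2.07 (FDR 0.0129). Without cont. mouse 3, in contrast, it was -0.82 (FDR 0.435), and without cont. mouse 2 it was -1.57 (FDR 0.196). The call in Atg7-KO;p62T352A against Atg7-KO was lost when any of Atg7-KO mouse 1 (FDR 0.0863), mouse 2 (FDR 0.091) and mouse 3 (FDR 0.0779) or Atg7-KO;p62T352A mouse 2 (FDR 0.0675) and mouse 3 (FDR 0.121) was left out.

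Cish (ENSMUSG00000032578.7; chr9:107296026-107302784, plus strand), another STAT5-induced feedback inhibitor, was called in no comparison. It was 2.6, 7.8 and 27.0 CPM in cont., 9.9, 9.3 and 11.0 in Atg7-KO and 3.4, 7.1 and 11.9 in the double mutant. The lowest value in cont. and in Atg7-KO;p62T352A was again mouse 1, and the genotypes overlapped in each comparison. The log2 fold changes were -0.28 ± 0.69 SE (FDR 0.759), -0.43 ± 0.69 (FDR 0.618) and -0.71 ± 0.70 (FDR 0.551). Without cont. mouse 3 the first was 0.99 (FDR 0.181) and the third 0.56 (FDR 0.546). Of the members with STAT5 letters in the windows printed above, Cish therefore had no called difference, whereas Igfals was called in 2 comparisons. Of 75-base stretches, 7.93% of those of Cish and 3.16% of those of Socs2 also occur in other genes. Among these are the gene models Gm17041 for Cish and Gm9847 for Socs2, which have no row in the count table.

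The spread of the 2 inhibitors within a genotype was the widest of the members in cont., beside Igfbp1. Their coefficients of variation in cont. were 81.4% for Socs2 and 103.5% for Cish, in Atg7-KO 9.85% and 8.74%, and in Atg7-KO;p62T352A 74.4% and 56.8%. Igfbp1 had 98.8%, 17.6% and 58.0%. The median over tested genes with a mean of at least 5 CPM was 27.1% in cont., 6.94% in Atg7-KO and 15.3% in the double mutant. Igf1 varied by 11.2%, 11.0% and 8.60%.

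Igf1 (ENSMUSG00000020053.18; chr10:87858265-87937042, plus strand), the hormone itself, had the lowest FDR of the members in all 3 comparisons. It was 746, 924 and 897 CPM in cont., 165, 185 and 149 in Atg7-KO and 1526, 1335 and 1577 in the double mutant. No genotypes overlapped, and the order was Atg7-KO, cont., Atg7-KO;p62T352A. Igf1 was 5.14-fold lower in Atg7-KO than in cont. (log2 fold change -2.36 ± 0.20 SE, n = 3, FDR 3.5e-05) and 8.89-fold higher in Atg7-KO;p62T352A than in Atg7-KO (3.15 ± 0.20, FDR 1.91e-05). Both calls held under each of 20 alternatives, at -2.45 to -2.25 and 3.02 to 3.23.

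Against cont., Atg7-KO;p62T352A livers had 1.73-fold more Igf1 (0.79 ± 0.19, FDR 0.0272), the 1 call among the members in that comparison. All 3 mice of the double mutant exceeded all 3 control mice. The estimate stayed at 0.68 to 0.86 under the 20 alternatives, but the call was lost under 9 of them, for which the FDR was 0.0577 to 0.411. These included leaving out cont. mouse 2 (0.78, FDR 0.0679), the mice numbered 1 (0.68, FDR 0.0585), any of Atg7-KO mouse 1 (FDR 0.0605), mouse 2 (FDR 0.0579) and mouse 3 (FDR 0.0577), and Atg7-KO;p62T352A mouse 1 (FDR 0.0692) or mouse 3 (FDR 0.0944).

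Igfals (ENSMUSG00000046070.9; chr17:24865997-24882010, plus strand), which encodes the acid-labile subunit of the circulating complex, was 136, 102 and 107 CPM in cont., 20.8, 37.3 and 31.0 in Atg7-KO and 83.4, 209 and 125 in the double mutant. The Atg7-KO mice lay below all the others, and the other 2 genotypes overlapped. It was 3.87-fold lower in Atg7-KO than in cont. (log2 fold change -1.95 ± 0.34 SE, FDR 0.00168) and 4.69-fold higher in Atg7-KO;p62T352A than in Atg7-KO (2.23 ± 0.35, FDR 0.000703). Against cont. the double mutant was at 0.27 ± 0.33 (FDR 0.634), a value that turned to -0.14 without its mouse 2 (FDR 0.81).

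The 3 binding proteins among the members did not move together. Igfbp2 (ENSMUSG00000039323.18; chr1:72824503-72852474, plus strand) was 486, 320 and 259 CPM in cont., 72.7, 93.6 and 98.3 in Atg7-KO and 301, 1087 and 569 in the double mutant. The Atg7-KO mice were again below all the others. Igfbp2 was 4.02-fold lower in Atg7-KO than in cont. (log2 fold change -2.01 ± 0.43 SE, FDR 0.00468) and 7.39-fold higher in the double mutant than in Atg7-KO (2.89 ± 0.45, FDR 0.000687). Against cont. the double mutant was at 0.88 ± 0.42 (FDR 0.204), and without the mice numbered 1 at 1.52 (FDR 0.0152), which was called. Leaving out single mice gave 0.29 to 1.22, none of them called, and the lowest value was without Atg7-KO;p62T352A mouse 2 (FDR 0.656).

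Igfbp1 (ENSMUSG00000020429.7; chr11:7197782-7202546, plus strand), a binding protein that insulin represses and fasting induces, was 133, 85.4 and 539 CPM in cont., 451, 337 and 477 in Atg7-KO and 74.7, 248 and 133 in the double mutant. Cont. mouse 3 exceeded all the Atg7-KO mice, whereas the other cont. mice lay below them. No comparison was called: Atg7-KO against cont. was at 0.74 ± 0.64 SE (FDR 0.368) and Atg7-KO;p62T352A against Atg7-KO at -1.47 ± 0.65 (FDR 0.0801), although the latter 2 genotypes did not overlap. Without cont. mouse 3 both were called, at 1.94 (FDR 0.0124) and -1.47 (FDR 0.0135). Without cont. mouse 2 the second was called (-1.46, FDR 0.0482), and without the mice numbered 1 neither was, at 0.38 (FDR 0.658) and -1.10 (FDR 0.211). DESeq2, with no mouse left out, also called the second (-1.50, FDR 0.0282). Against cont. the double mutant was at -0.73 ± 0.64 (FDR 0.494), and at 0.47 without cont. mouse 3 (FDR 0.534).

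Igfbp3 (ENSMUSG00000020427.11; chr11:7206086-7213923, minus strand), the main carrier of IGF-1 in serum, lies 3.539 kb from Igfbp1. It was 21.1, 21.8 and 18.5 CPM in cont., 25.3, 23.0 and 20.1 in Atg7-KO and 29.0, 25.7 and 32.4 in the double mutant. The double mutant lay above both other genotypes without overlap, but no difference was called: the log2 fold changes were 0.15 ± 0.17 SE (FDR 0.471), 0.35 ± 0.17 (FDR 0.099) against Atg7-KO and 0.50 ± 0.17 (FDR 0.0796) against cont. In single-gene comparisons of 3 against 3 mice, an exact permutation test cannot go below 0.1, so that no member could pass 0.05 by that test.

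**Figure D2:**
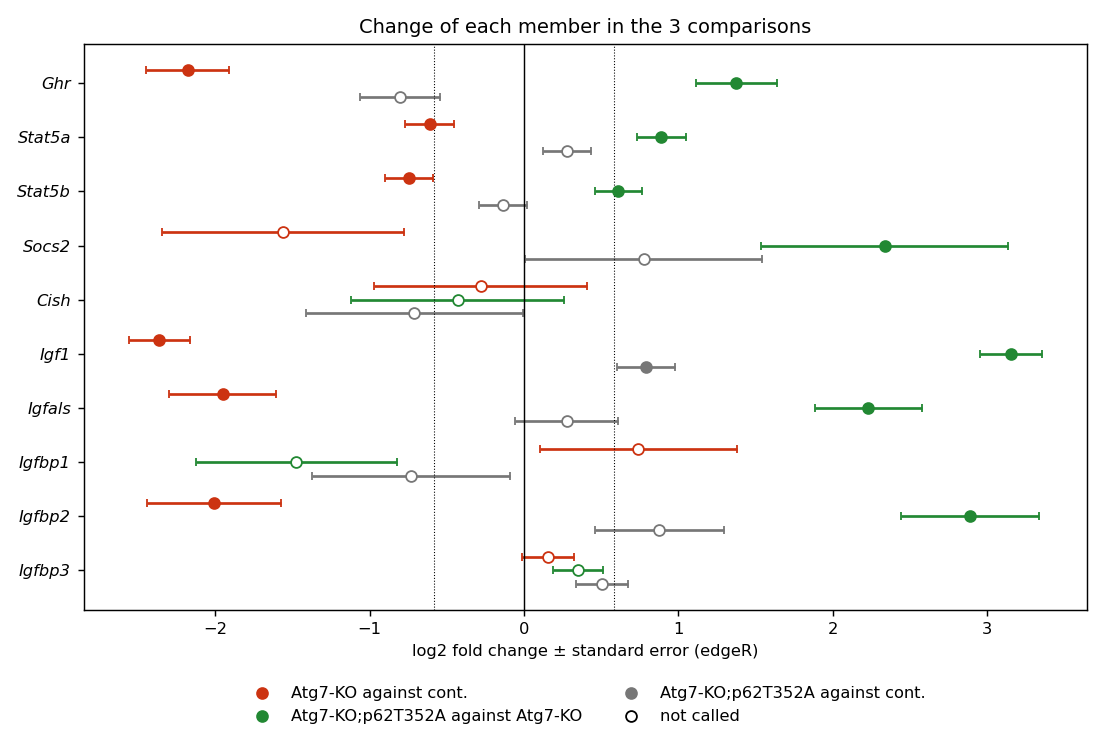
Log2 fold change (edgeR, with its standard error as the bar) of each member in the 3 comparisons. Filled points were called, the dotted lines mark 1.5-fold, and the red points of 6 members lie at -2.36 to -0.61 where their green counterparts lie at 0.61 to 3.15.

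To compare levels between genes, CPM were divided by the length in kb of the longest coding transcript of each gene. On that scale the level of Igf1 (mean ± SD of 3 mice) went from 121 ± 13.6 in cont. to 23.6 ± 2.60 in Atg7-KO, with 209.8 ± 18.0 in the double mutant, and that of Ghr was 147 ± 52.1, 32.4 ± 4.40 and 84.0 ± 11.5. Levels per kb of Igf1 and Ghr differed in cont. by less than the spread of Ghr. Socs2 stood at 16.4 ± 13.3 in cont., next to Stat5b at 15.5 ± 0.74, and Cish at 4.37 ± 4.52, next to Stat5a at 5.68 ± 0.60. These neighbours did not differ beyond their spread. Igfals was at 43.8 ± 7.00, between Igf1 and Socs2. With the median coding transcript in place of the longest, Igf1 was at 626 and Ghr at 505 in cont., so the place of both genes in the order depends on which transcript is taken.

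The make-up of the binding protein transcripts is given as a description, with no test. As a share of the summed per-kb levels of Igfbp1 to Igfbp7, Igfbp2 made up 43.4%, 37.4% and 20.3% in the cont. mice, 7.22%, 10.2% and 9.38% in Atg7-KO and 33.8%, 51.8% and 42.5% in the double mutant. Igfbp1 made up 10.2%, 8.56% and 36.2%, then 38.4%, 31.5% and 39.0%, then 7.19%, 10.1% and 8.51%. For Igfbp2 the Atg7-KO mice were below all the others, and for Igfbp1 they were above all but cont. mouse 3. Igfbp7, which binds IGFs weakly, was at 10.4% ± 1.58 (SD, n = 3) in cont., against 29.0% ± 1.01 in Atg7-KO and 9.36% ± 3.51 in the double mutant. Igfbp4 made up 36.0% ± 3.91, 24.3% ± 2.26 and 37.9% ± 6.76, and Igfbp3 1.06% ± 0.30, 1.25% ± 0.18 and 1.24% ± 0.55. With the median transcript, Igfbp4 took 72.7%, 61.5% and 73.7%, and the means of Igfbp2 were 14.9%, 4.99% and 18.8%.

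**Figure D3:**
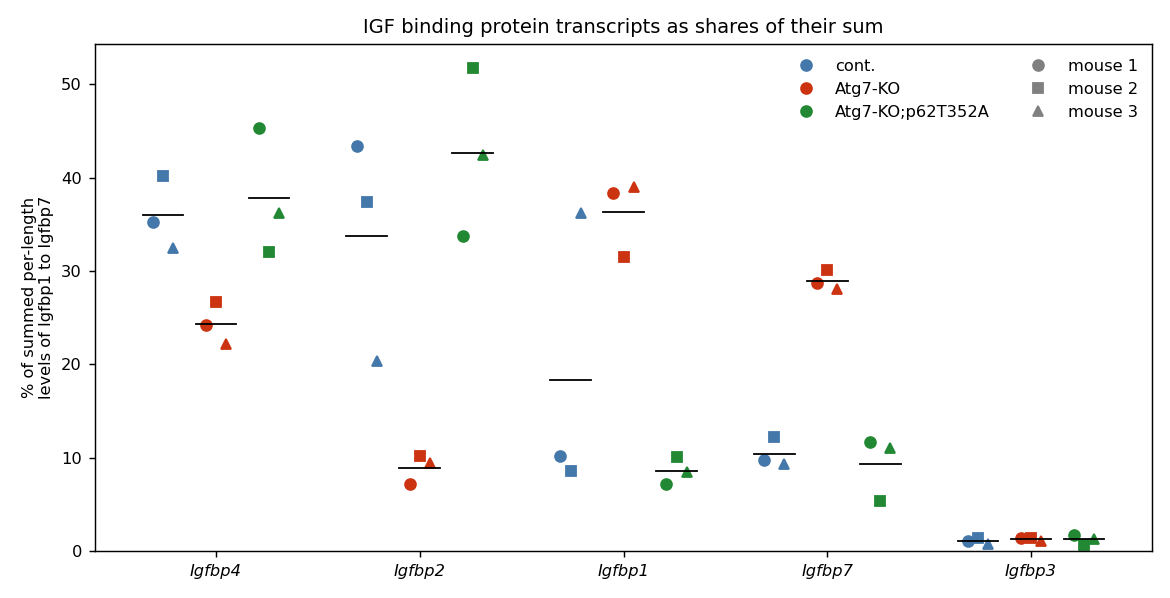
Share (%) of 5 binding protein transcripts in the summed per-length levels of Igfbp1 to Igfbp7 in each mouse, with a bar at the mean of 3 mice. In Atg7-KO, Igfbp2 sits at 7.22% to 10.2% and Igfbp7 at 28.1% to 30.1%, away from the other 2 genotypes, while cont. mouse 3 lies among the Atg7-KO mice for Igfbp1.

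Other genes of the IGF system were counted over a list of 18, of which 16 were tested. In Atg7-KO against cont., 7 were called higher and 2 lower, with a median log2 fold change of 0.54, and in Atg7-KO;p62T352A against Atg7-KO 3 were higher and 4 lower, with a median of -0.62. In the third comparison 1 was higher and 1 lower, with a median of 0.32. The shares called were 56.2%, 43.8% and 12.5%, against 43.7%, 51% and 11.6% of all tested genes. Without the mice numbered 1, 7, 6 and 1 were called, and without cont. mouse 2, 9, 7 and 1. Igfbp4 was 1157, 1006 and 1213 CPM in cont., 714, 718 and 680 in Atg7-KO and 1182, 1972 and 1422 in the double mutant, and its log2 fold changes were -0.68 (FDR 0.031) and 1.12 (FDR 0.00263). Igfbp7 was 96.1 to 109 CPM in cont., 254 to 270 in Atg7-KO and 95.5 to 136 in the double mutant (1.37, FDR 0.000357, and -1.24, FDR 0.000488). Htra1, a serine protease that cleaves binding proteins, was 0.946 to 1.76, 8.27 to 12.6 and 1.05 to 2.02 CPM (2.85, FDR 0.000196, and -2.85, FDR 0.000168).

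Receptors in the same list are described next. Igf1r, the IGF-1 receptor, was 2.98 to 8.57, 6.05 to 7.55 and 6.30 to 13.2 CPM and was called in no comparison (FDR 0.568, 0.285 and 0.219). Igf2r, which clears IGF-2, was 32.0 to 37.7 CPM in cont., 57.4 to 70.8 in Atg7-KO and 25.8 to 35.0 in the double mutant (0.87, FDR 0.00295, and -1.08, FDR 0.000781). Irs2, an adaptor of the insulin and IGF-1 receptors, was 9.28, 5.67 and 53.1 CPM in cont. and 2.07, 1.82 and 4.90 in Atg7-KO;p62T352A, and was called lower there (-2.93, FDR 0.0391), with cont. mouse 3 far above the other mice. Irs2 and Igf2bp2 were the 2 genes of the list called in that comparison, and neither was called without cont. mouse 3, nor when any single Atg7-KO or Atg7-KO;p62T352A mouse was left out. Igfbp5 was 9.97, 5.96 and 32.8 CPM in cont. and 3.12 to 4.59 in Atg7-KO (-2.04, FDR 0.0179). Calls of Stc1 and Pappa in Atg7-KO, a regulator and a protease of the system, rested on levels in cont. of at most 0.11 and 0.33 CPM, so no fold is given. Igf2 was called higher in Atg7-KO;p62T352A than in Atg7-KO (1.91, FDR 0.0475) at 0.70 to 3.46 against 0.0967 to 0.657 CPM, and Igf2bp3, an RNA-binding protein, lower (-1.44, FDR 0.00517).

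GH signalling partners outside the members, a list of 20 genes, had 3 called higher and 5 lower in Atg7-KO against cont. (median -0.11), 6 higher and 4 lower in Atg7-KO;p62T352A against Atg7-KO (median -0.05), and 1 higher and none lower in the third comparison (median -0.02). These shares of 40%, 50% and 5% were near or below the 43.7%, 51% and 11.6% of all tested genes. Jak2, the receptor's kinase, was 16.8 to 23.0 CPM in cont. and 24.0 to 24.6 in Atg7-KO (0.33, FDR 0.166), and 10.6 to 15.1 in Atg7-KO;p62T352A, which was lower than Atg7-KO (-0.94, FDR 0.00264). Prlr, the prolactin receptor and a relative of Ghr, was 146, 264 and 419 CPM in cont., 37.3, 115 and 83.2 in Atg7-KO and 189, 403 and 460 in the double mutant (-1.82, FDR 0.0158, and 2.16, FDR 0.00624). Socs1, an inhibitor of JAK kinases, was 0.802 to 0.879 CPM in cont., 2.37 to 3.37 in Atg7-KO and 1.68 to 3.39 in the double mutant, and was the gene called higher in the third comparison (1.54, FDR 0.0222).

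Also among the partners, Cux2, a female-biased repressor, was 0.344, 199.99 and 62.5 CPM in cont. and 0.484, 5.79 and 4.65 in Atg7-KO (-4.57, FDR 0.0486), with mouse 1 low in both. Grb10, an adaptor that dampens insulin and IGF-1 receptor signals, fell in Atg7-KO;p62T352A against Atg7-KO (-1.59, FDR 0.0034), and Onecut1, a hepatocyte transcription factor, rose (1.21, FDR 0.0105). Calls in this list depended on the mice used. Without the mice numbered 1, 10, 11 and 6 were called in the 3 comparisons, and without cont. mouse 2, 6, 10 and 0.

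**Figure D4:**
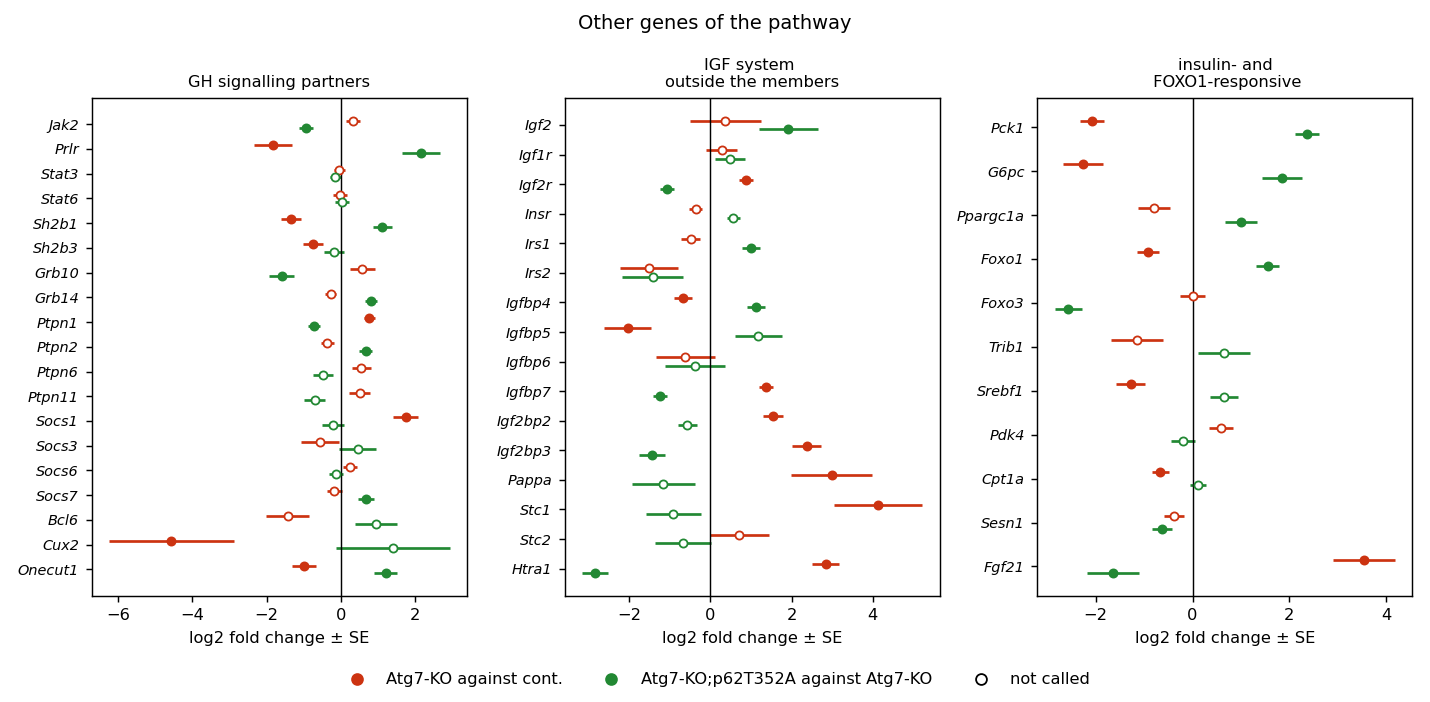
Log2 fold change with its standard error (edgeR) of tested genes of 3 lists in Atg7-KO against cont. (red) and Atg7-KO;p62T352A against Atg7-KO (green), filled where called. Igfbp7 lies at 1.37 and -1.24, Igfbp4 at -0.68 and 1.12, and Jak2 at 0.33 and -0.94.

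Genes that respond to insulin and FOXO1, which also govern Igfbp1, formed a list of 12. In Atg7-KO against cont., 1 was called higher and 6 lower (median -0.86), in Atg7-KO;p62T352A against Atg7-KO 5 higher and 3 lower (median 0.65), and in the third comparison none higher and 2 lower (median -0.10), or 58.3%, 66.7% and 16.7% of the list against 43.7%, 51% and 11.6% of all tested genes. Pck1, an enzyme of gluconeogenesis, was 1918 to 3193 CPM in cont., 524 to 649.7 in Atg7-KO and 2637 to 3535 in the double mutant (-2.08, FDR 0.000223, and 2.37, FDR 0.000118). G6pc, the last enzyme of the same path, differed by -2.26 (FDR 0.00196) in the first comparison. Fgf21, a hepatic hormone, was 0.0573 to 1.23 CPM in cont., 5.97 to 6.48 in Atg7-KO and 1.29 to 2.73 in the double mutant (3.55, FDR 0.00192, and -1.64, FDR 0.0267). Foxo3 was 11.1 to 13.0 CPM in Atg7-KO and 1.75 to 2.35 in the double mutant, which was lower than Atg7-KO (-2.57, FDR 0.000134) and than cont. (-2.57, FDR 0.00322). Without the mice numbered 1, 11, 7 and 3 genes of the list were called in the 3 comparisons, and without cont. mouse 2, 6, 8 and 3.

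Liver genes that follow the sex-dependent pattern of GH were the last lists, and the mice numbered 1 stood apart in them. Of 11 male-biased genes, Atg7-KO had 7 called lower and none higher against cont. (median -2.72), 4 higher and none lower in Atg7-KO;p62T352A against Atg7-KO (median 2.07), and 2 lower in the third comparison (median -0.93), namely Cyp7b1 (-2.42, FDR 0.0389) and Susd4 (-3.98, FDR 0.0104). The shares called were 63.6%, 36.4% and 18.2%, against 43.7%, 51% and 11.6% of all tested genes. Elovl3, a fatty acid elongase, was 1159.7, 418 and 99.4 CPM in cont., 2.71, 16.4 and 4.22 in Atg7-KO and 394, 43.2 and 15.2 in the double mutant (-6.17, FDR 0.00761, and 4.28, FDR 0.0227). Slco1a1, an organic anion transporter, was 725, 298 and 74.0, then 9.43, 12.1 and 3.07, then 338, 148 and 88.9 CPM (-5.48, FDR 0.00142, and 4.55, FDR 0.00242). For both genes mouse 1 was the highest in cont. and in Atg7-KO;p62T352A but not in Atg7-KO. Hsd3b5, a steroid dehydrogenase, differed by -6.10 in the first comparison (FDR 0.00676), and Cspg5 by 4.93 in the second (FDR 0.0103) at levels of at most 2.69 CPM. Without the mice numbered 1, 9, 2 and 5 male-biased genes were called in the 3 comparisons, and without cont. mouse 2, 6, 4 and 1.

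Of 17 female-biased genes, Atg7-KO had 2 called higher and 3 lower (median -1.80), 1 higher and none lower in Atg7-KO;p62T352A against Atg7-KO (median 1.24) and none in the third comparison (median -0.51), shares of 29.4%, 5.88% and 0% against the same background. In the third, 1 gene had an unadjusted edgeR p under 0.05, and DESeq2 called 1. Cyp2a4, a steroid hydroxylase, was 7.22, 203 and 402 CPM in cont., 3420.3, 4852 and 4881 in Atg7-KO and 162, 911 and 930 in the double mutant (4.43, FDR 0.0118, in the first comparison). Cyp2b13 was 0.0573, 143 and 299 CPM in cont. and 0.532, 1.60 and 1.58 in Atg7-KO (-6.87, FDR 0.0287). Female-biased genes lay on both sides, with Prom1 at 3.79 (FDR 0.0131) and the sulfotransferase Sult3a1 at -6.06 (FDR 0.0333) in the first comparison and 5.55 (FDR 0.0381) in the second. Prom1 was 1.09 to 8.90 CPM in cont., 29.1 to 69.1 in Atg7-KO and 0.928 to 18.3 in the double mutant. The part of the cell types of the liver in the differences of these lists was not tested. Without the mice numbered 1, 10, 9 and 3 genes were called in the 3 comparisons, and without cont. mouse 2, 3, 0 and 0. Expected counts of Cyp2a4, Cyp2b13 and Sult3a1, and of Slco1a1 and Hsd3b5 above, were fractional, so reads may have been divided with other genes. How many were divided was not tested.

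**Figure D5:**
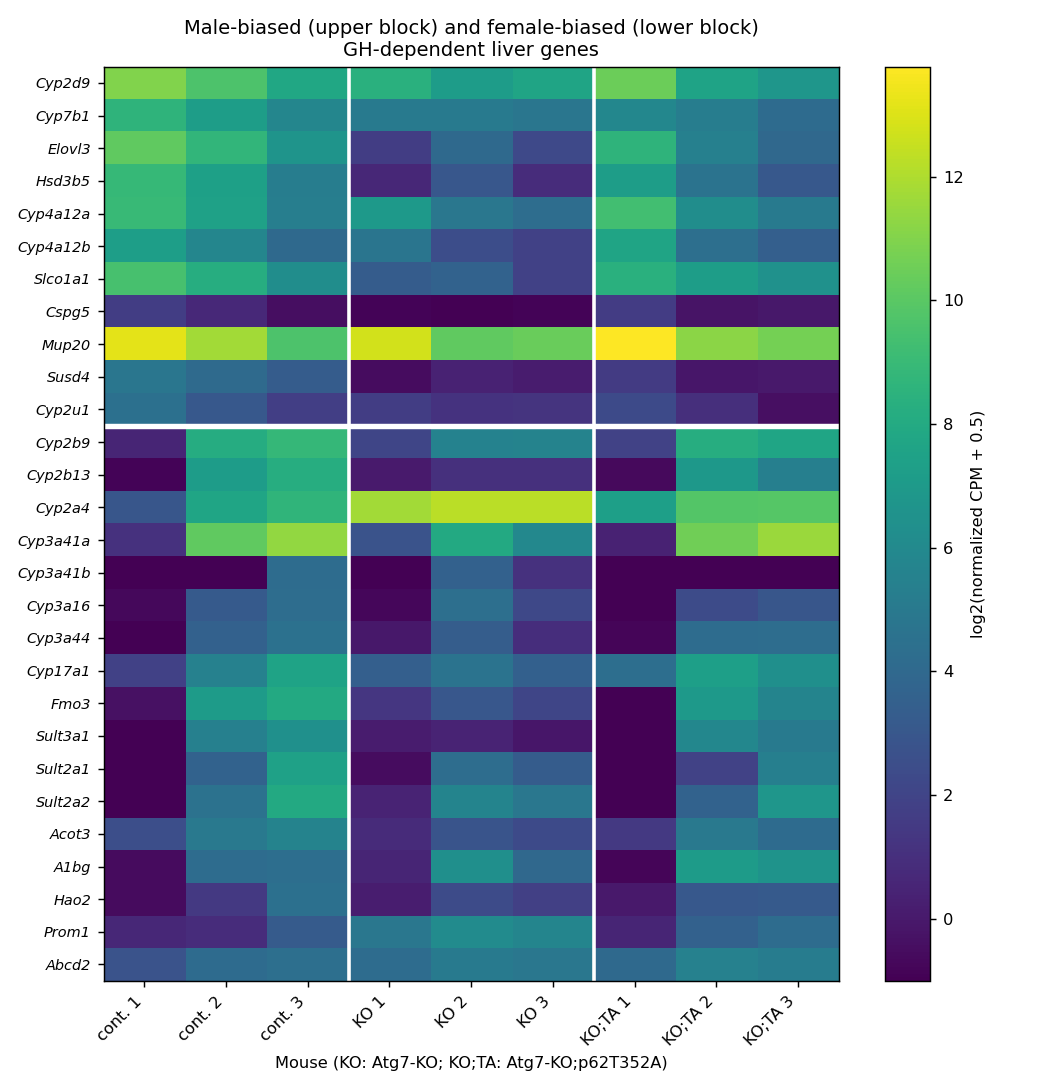
Heat map of log2(normalized CPM + 0.5) of 11 male-biased and 17 female-biased GH-dependent liver genes in each of the 9 mice. Male-biased Elovl3 goes from 1159.7 through 418 to 99.4 CPM over the cont. mice and lies at 2.71 to 16.4 in Atg7-KO, while Cyp2a4 lies at 3420.3 to 4881 in Atg7-KO.

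Across the 9 mice, the genes whose log2 CPM followed the members most closely were sought among 8500 with a mean of at least 10 CPM. These are descriptions over mice that share genotypes. Ghr was followed by Dpyd (Pearson r = 0.988), Ces1e (0.987) and Car3 (0.985), an enzyme of pyrimidine breakdown, a carboxylesterase and a carbonic anhydrase. Igf1 was followed by 1600002H07Rik (0.998), Gm16548 (0.996) and Klkb1 (0.994), the last of them plasma kallikrein. Igfals was followed by Ech1 (0.974), Agxt (0.973) and Lipc (0.973), and Igfbp1 by Actg1 (0.962), Tagln (0.948) and Tmem98 (0.944), the first a cytoplasmic actin. Dpyd itself was 581, 275 and 238 CPM in cont., 88.7, 88.2 and 65.5 in Atg7-KO and 196, 192 and 174 in the double mutant, with cont. mouse 1 the highest, as for Ghr.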

How the data were processed

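Poly(A) RNA from liver was sequenced as 75-base reads. The authors trimmed reads with Trim Galore, aligned them to mm10 with STAR and estimated expected counts per gene with RSEM, as the submitters' processing notes list, and deposited them in 1 table without normalization. Versions are not given in the sources used here. Expected counts were rounded and analysed in R 4.3.3 with edgeR 4.0.16 (filterByExpr, TMM, quasi-likelihood F test, Benjamini-Hochberg over all genes tested); DESeq2 1.42.0, the study's tool, was an alternative. The procedure was run on simulated counts with few changed genes and no split of mice within genotypes, so that run checks the code only. Figures were drawn in Python 3.11.15 with matplotlib 3.10.9. Positions and transcript lengths are from GENCODE vM21 on GRCm38, the build of mm10, and promoter sequences from RefSeq.

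Groups are from the sample titles, which number the mice. The p-values measure the spread between these libraries, pooled over genotypes that each hold mice with few and with many Xist counts. Totals of 9671073 to 23285134 counts limit the precision of genes near 1 CPM, where 10 counts equal 0.411 to 1.10 CPM. The members and gene lists were chosen with earlier results of these data known. All members are named, with Atg7, Nqo1, Xist and the 4 Y-linked genes as checks; of each list, the 2 genes with the largest called rise and fall per comparison, and others chosen for their role or after their values were seen. The genes most alike in pattern were ranked by Pearson's r. Alternatives were other scalings, filters, thresholds, a block, DESeq2 and leaving out mice. A term for the mice numbered 1, the STAT5 sum and the median transcript length were added after seeing the data. Some genes of the lists are counted but not reported here by name or drawn.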

Additional observations from a re-analysis of the deposited data

How the results depend on the processing

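Each member's 3 differences were recomputed under 20 alternatives. Of 600 values, 560 kept direction and call, 25 lost the call, 9 gained one and 6 reversed. Reversed, none of them called, were Cish in Atg7-KO against cont. (0.25 with the mouse number as a block, 0.072 with a term for the mice numbered 1, 0.99 without cont. mouse 3) and, in Atg7-KO;p62T352A against cont., Cish (0.56) and Igfbp1 (0.47) without cont. mouse 3 and Igfals (-0.14) without Atg7-KO;p62T352A mouse 2. On leaving out single mice, the values ranged from -0.78 to 0.99 for Cish in the first comparison, and in the third from -1.22 to 0.56 for Cish, -0.14 to 0.54 for Igfals and -1.28 to 0.47 for Igfbp1. The causes were not tested.

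Members called in Atg7-KO;p62T352A against cont. numbered 2 with DESeq2 and with the term for the mice numbered 1, 0 with glmTreat, and 0 to 1 on leaving out single mice. With glmTreat, Stat5a (FDR 0.402) and Stat5b (FDR 0.149) also lost their calls in Atg7-KO against cont. Stat5b (FDR 0.363) and Socs2 (FDR 0.0589) lost theirs in Atg7-KO;p62T352A against Atg7-KO. Over all genes, glmTreat called 3855, 4718 and 253 in the 3 comparisons, against 6080, 7095 and 1613. In the third, 2975 were called without the mice numbered 1 and 435 to 3245 on leaving out single mice (435 without Atg7-KO;p62T352A mouse 3, 3245 without cont. mouse 1). Leaving out single mice gave 4587 to 7960 and 5652 to 8142 genes in the first 2 comparisons, and 6 to 7 and 5 to 8 members. Upper-quartile scaling split the calls of the second comparison into 2897 higher and 4141 lower, against 3443 and 3652, and those of the first into 3366 and 2581, against 3006 and 3074.

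Deviations from the genotype means correlated at -0.20 to 0.32 (mean 0.15) between mice sharing a number (9 pairs) and at a mean of -0.07 between the other 18 pairs. Deviations within a genotype sum to 0, so the second mean is largely tied to the first and cannot decide whether the mice are paired. The main fit used genotype only, because the study's methods name no block. With the number as a block, members called were 6, 7 and 0, with Igf1 in the third comparison at 0.80 (FDR 0.0579, edgeR), and genes called in that comparison were 988.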
